A study of Mus musculus with 4 samples.

Results

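The protein kinase C family was described in mouse soleus, a slow-twitch calf muscle, on 4 oligonucleotide arrays. Each array was hybridised with total RNA of soleus from female mice aged 6 months, and every array is labelled a technical duplicate of muscle pooled from 5 mice. Duplicate arrays were read here as sharing 1 pool, which the labels do not state outright. If each array held a pool of its own, the spread between arrays would also include that between pools. The groups were HSL-null and Wildtype, where HSL stands for the hormone-sensitive lipase that Lipe encodes. The labels name neither the strain nor the way the gene was disrupted. Members were the probe sets whose annotation gave exactly 1 gene symbol and that symbol was Prkca, Prkcb, Prkcd, Prkce, Prkch, Prkcq, Prkcz or Dgka. All 8 genes were on the array, with 14 of its 12488 probe sets, and 5 genes had more than 1 probe set.

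Protein kinase C isoforms are serine/threonine kinases that are held inactive by a pseudosubstrate segment until lipid draws them to a membrane. The conventional isoforms alpha and beta need calcium and diacylglycerol, and the isoforms delta, epsilon, eta and theta need diacylglycerol without calcium. The atypical isoform zeta binds neither, and diacylglycerol kinase alpha (Dgka) removes diacylglycerol by converting it to phosphatidic acid, so Prkcz and Dgka are not diacylglycerol-responsive protein kinase C isoforms in the textbook sense. HSL hydrolyses diacylglycerol, and muscle diacylglycerol with theta, epsilon and delta activation has been studied widely in relation to insulin resistance. The comparison asks whether mRNA of these kinases differed in soleus without HSL. An mRNA level says nothing of kinase activity or of diacylglycerol, neither of which was measured here.

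Among the member probe sets bright enough to compare, none differed by 1.5-fold between HSL-null and Wildtype. Prkcq, the isoform theta, was read far above the filter used here, at close to the same level on all 4 arrays. Prkcz was slightly higher and Prkca slightly lower in HSL-null, each without overlap between the arrays, and the other member probe sets above the filter overlapped. Below the filter a dim Prkcb probe set was also higher in HSL-null without overlap. Probe sets were compared above a filter, a mean intensity of at least 27.7, the median over probe sets, which 8 of the 14 member probe sets and 6 of the 8 genes passed. Prkch and Dgka had none above it. A probe set was called when each of the 4 pairings of an HSL-null with a Wildtype array differed in the same direction by 1.5-fold or more. Of the 8 member probe sets 0 were called, beside 0.451% of all 6208 probe sets above the filter. With the arrays taken as 1 pool per genotype there is no test across animals, no p-value was computed, and SDs and standard errors below measure the error between duplicate arrays. In muscle RNA, fewer cells of a type and less RNA per cell cannot be told apart.

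**Figure D1:**
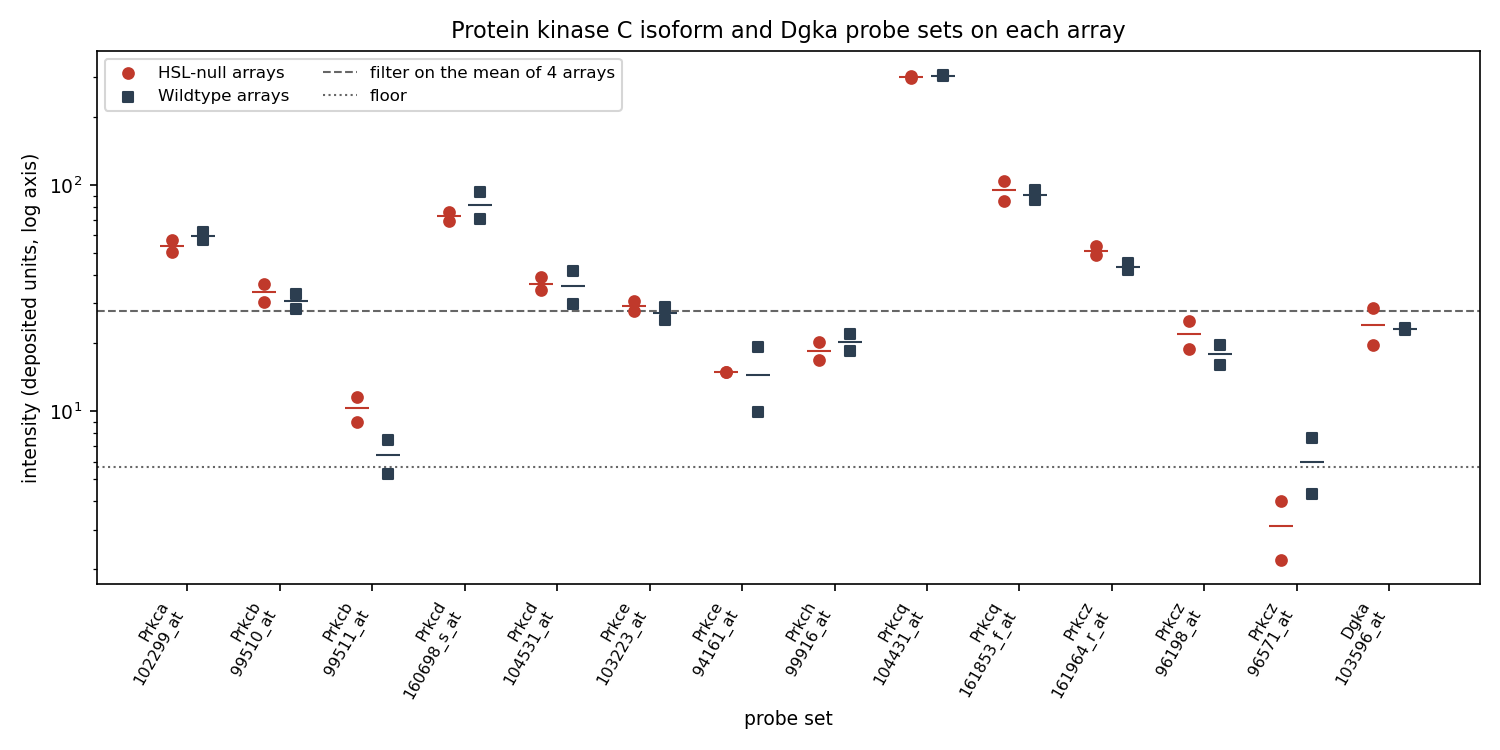
Intensity (deposited units, log axis) of the 14 member probe sets on each array, with HSL-null arrays as circles left of Wildtype arrays as squares and short bars for the mean of 2 arrays. Prkcq 104431_at lies between 296.7 and 307.0, and 6 probe sets lie under the dashed filter line at 27.7.

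Genes of slow and of fast muscle fibres were both bright on the arrays. The slow-fibre genes Tnnt1 (slow troponin T) and Myh7 (slow myosin heavy chain) averaged 6062 ± 172 and 5201 ± 92.6 in HSL-null (SD, n = 2 arrays), and 5867 ± 313 and 5122 ± 330 in Wildtype. The other Myh7 probe set, 161547_f_at, averaged 93.4 ± 33.4 in HSL-null and 77.95 ± 0.92 in Wildtype. The fast-fibre gene Atp2a1 averaged 5152 ± 26.7 in HSL-null and 4969 ± 284 in Wildtype. Lipe measured 16.2 and 19.4 in HSL-null and 71.4 and 70.2 in Wildtype, 3.99-fold lower with a standard error of 0.13 on the log2 scale. Over the 6208 probe sets, duplicates correlated at r = 0.988 in HSL-null and 0.987 in Wildtype, against 0.983 to 0.986 across the genotypes. The beta-actin control, read at both ends of its transcript as a measure of RNA quality, had a 3′ to 5′ ratio of 0.816 and 0.823 in HSL-null and 0.688 and 0.706 in Wildtype.

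The conventional isoforms came first in the order of roles. Prkca encodes protein kinase C alpha, which is found in most tissues. Its single probe set, 102299_at, measured 57.1 and 50.9 in HSL-null and 62.0 and 57.4 in Wildtype. Both HSL-null arrays lay below both Wildtype arrays, but the higher HSL-null array (57.1) and the lower Wildtype array (57.4) nearly met. The log2 difference was -0.15 ± 0.10 (SE), 1.11-fold lower, and the 4 array pairs ran from -0.28 to -0.01. Duplicates differed by 0.17 in HSL-null and 0.11 in Wildtype on the log2 scale, so the difference between genotypes was not larger than the larger gap between duplicates. The arrays overlapped once each array was centred on its median, where the difference was -0.13.

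Prkcb encodes the beta isoform, which is abundant in lymphoid cells and brain. Probe set 99510_at measured 30.5 and 36.7 in HSL-null and 28.3 and 33.1 in Wildtype. The arrays of the genotypes interleaved, 3 of 4 array pairs were higher in HSL-null, and the log2 difference was 0.13 ± 0.17. The second Prkcb probe set, 99511_at, measured 9.0 and 11.6 in HSL-null and 5.3 and 7.5 in Wildtype. It lay below the filter, with 1 Wildtype array under the floor of 5.70 (the 25th percentile of all values, to which lower values were raised). Both HSL-null arrays were above both Wildtype arrays on this dim probe set. The log2 difference was 0.64 ± 0.27 with that value at the floor, and the closest array pair was 1.2-fold apart, so it would not have been called without the filter.

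Prkcq encodes the theta isoform, known for its expression in skeletal muscle and in T cells. Probe set 104431_at measured 296.7 and 305.4 in HSL-null and 307.0 and 303.7 in Wildtype. The averages were 301.0 ± 6.15 in HSL-null and 305.4 ± 2.33 in Wildtype (SD, n = 2 arrays). Single HSL-null arrays differed from single Wildtype arrays by -3.36% to 0.56%, the narrowest range of the 14 member probe sets, and the log2 difference was -0.02 ± 0.02. The second Prkcq probe set, 161853_f_at, measured 85.5 and 104.1 in HSL-null and 95.7 and 86.1 in Wildtype. Its Wildtype arrays lay between the HSL-null arrays, and the log2 difference was 0.06 ± 0.16. Its suffix marks probes that can be shared with related sequences.

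Markers of lymphocytes, the other cell type known for Prkcq and Prkcb, were dim. Of 14 lymphocyte genes on the array 1 passed the filter, and 8 of their 19 probe sets were under the floor on every array. The defining T-cell gene Cd3e measured 3.6 and 3.2 in HSL-null and 3.3 and 3.4 in Wildtype, all under the floor. The B-cell gene Ms4a1, the one above the filter, measured 27.2 and 28.7 in HSL-null and 24.6 and 35.7 in Wildtype. The other Ms4a1 probe set, 99446_at, was under the floor on all 4 arrays. Cd4, just below the filter and also carried by macrophages, measured 32.1 and 30.4 in HSL-null and 22.5 and 20.1 in Wildtype. It was higher in HSL-null without overlap, while other dim lymphocyte probe sets were lower. Zap70 93663_r_at, for a T-cell kinase, averaged 17.2 ± 2.83 in HSL-null and 26.4 ± 3.39 in Wildtype (SD, n = 2 arrays), without overlap. The other Zap70 probe sets, 93662_s_at and 93661_at, were not lower. Each had 3 arrays under the floor, and their log2 differences were 0.04 and 0.12. Cd79a, for a part of the B-cell receptor, averaged 17.6 ± 0.566 in HSL-null and 21.4 ± 1.27 in Wildtype, also without overlap. The summed intensity of the 19 probe sets was 160.3 and 155.7 in HSL-null and 151.7 and 148.4 in Wildtype.

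Prkcd encodes the delta isoform, a widely expressed kinase linked to apoptosis and to insulin signalling. Probe set 160698_s_at measured 76.4 and 69.4 in HSL-null and 71.1 and 92.9 in Wildtype. Both HSL-null arrays lay within or just below the range of the Wildtype arrays, and the log2 difference was -0.16 ± 0.20. Probe set 104531_at measured 34.4 and 39.1 in HSL-null and 29.8 and 41.9 in Wildtype. Here the HSL-null arrays lay inside the Wildtype range, and the log2 difference was 0.05 ± 0.26. The probe sets of this gene thus differed in sign, and on both the Wildtype duplicates were farther apart (0.39 and 0.49 on the log2 scale) than the genotypes.

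Prkce encodes the epsilon isoform, studied in muscle and liver for its activation by diacylglycerol. Probe set 103223_at measured 27.9 and 30.8 in HSL-null and 25.4 and 28.8 in Wildtype. The arrays interleaved, 3 of 4 array pairs were higher in HSL-null, and the log2 difference was 0.12 ± 0.12. With a mean of 28.2 it stood just inside the filter. Probe set 94161_at measured 15.0 and 15.0 in HSL-null and 19.2 and 9.9 in Wildtype, so that the HSL-null arrays lay between the Wildtype arrays. Its log2 difference was 0.12 ± 0.48, but 0.60 without Wildtype array 1 and -0.36 without Wildtype array 2. Prkch encodes the eta isoform, known from epithelia and lymphocytes. Its probe set 99916_at measured 20.3 and 16.8 in HSL-null and 22.0 and 18.4 in Wildtype, below the filter and with overlapping arrays.

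**Figure D2:**
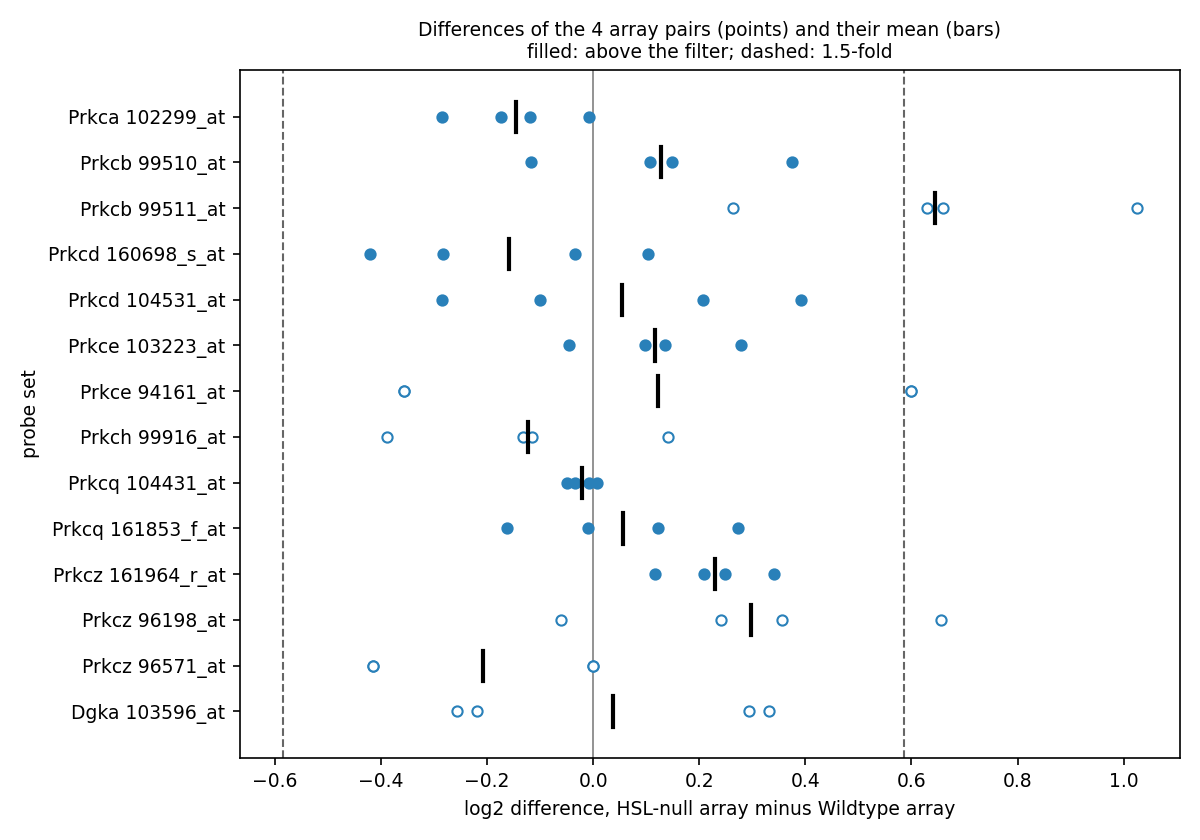
Log2 difference of each of the 4 pairs of an HSL-null and a Wildtype array (points) and their mean (bars) for the 14 member probe sets, with filled points above the filter and dashed lines at 1.5-fold. Of the filled rows, Prkca lies below 0 on all 4 pairs and Prkcz 161964_r_at above 0, and no filled row has a pair past a dashed line.

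The atypical isoform and the kinase that removes diacylglycerol followed. Prkcz encodes protein kinase C zeta, which works with polarity proteins and downstream of phosphoinositide-dependent kinase. Probe set 161964_r_at measured 53.6 and 48.9 in HSL-null and 45.1 and 42.3 in Wildtype. Both HSL-null arrays lay above both Wildtype arrays, and the log2 difference of 0.23 ± 0.08 (1.17-fold) was larger than the gap between duplicates, 0.13 in HSL-null and 0.09 in Wildtype. The 4 array pairs ran from 0.12 to 0.34, under the 1.5-fold threshold. It was the single member probe set above the filter whose genotypes differed by more than both pairs of duplicates.

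The other Prkcz probe sets gave less. Probe set 96198_at measured 18.9 and 25.2 in HSL-null and 19.7 and 16.0 in Wildtype, below the filter, with 3 of 4 array pairs higher in HSL-null and a log2 difference of 0.30 ± 0.26. Probe set 96571_at measured 2.2 and 4.0 in HSL-null and 7.6 and 4.3 in Wildtype, with 3 of 4 arrays under the floor of 5.70. Its log2 difference of -0.21 rested on the floor, and was -0.95 with the floor at an intensity of 1 or at the 10th percentile. Dgka was read by 103596_at at 19.6 and 28.7 in HSL-null and 23.4 and 22.8 in Wildtype. The Wildtype arrays of this dim probe set lay between the HSL-null arrays, and the log2 difference was 0.04 ± 0.28.

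The arrays of the genotypes did not overlap for 2 of the 8 member probe sets above the filter (25%), beside 40.6% of all 6208. Higher in HSL-null without overlap was 1 member probe set, beside 19.5% of all, and lower was 1, beside 21.1% of all. This share lay below the background, so the missing overlap of Prkca and Prkcz gives no result about the isoforms. When 1 array was left out, which leaves 2 array pairs, 4 to 6 of the 8 did not overlap, beside 69.0% to 71.2% of all. The counts were 6 without HSL-null array 1, 4 without HSL-null array 2, 4 without Wildtype array 1 and 6 without Wildtype array 2. Prkca and Prkcz 161964_r_at were among them each time by construction, because the pairs left were among the 4 that already shared a direction. The differences of the 8 ran from -0.16 to 0.23 with a median of 0.05, against a median of -0.0022 over all, and all 8 were smaller in size than 0.25, as were 83.9% of all. In 7 of the 8 a pair of duplicates differed by more than the genotypes did, as in 71.4% of all. The beta-actin 3′ to 5′ ratio was higher in HSL-null (0.816 and 0.823) than in Wildtype (0.688 and 0.706), and its part in the differences of Prkca and Prkcz was not tested.

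**Figure D3:**
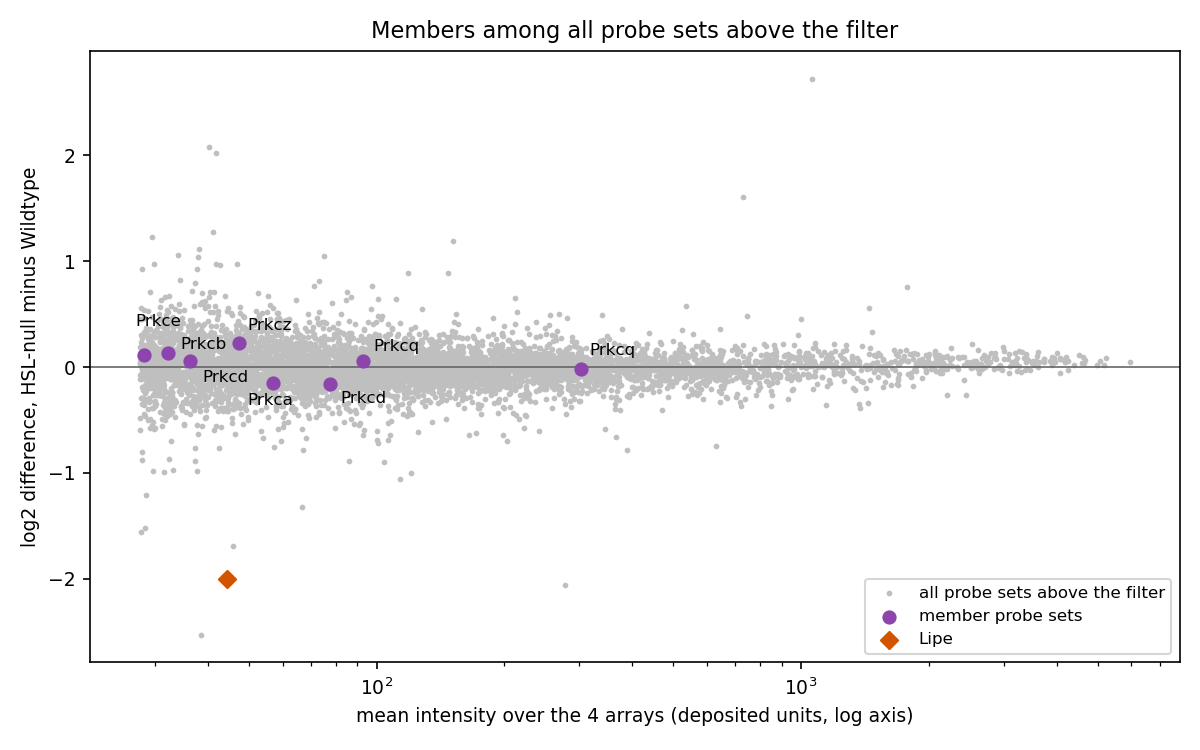
Log2 difference of HSL-null minus Wildtype against mean intensity over the 4 arrays (log axis) for the 6208 probe sets above the filter (grey), with the 8 member probe sets in purple and Lipe as a diamond. The members lie between -0.16 and 0.23, within the grey band, and Lipe lies far below, 3.99-fold lower.

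The error between duplicates set what could be seen. Between 27.7 and 50, the level of the Prkcb, Prkce, Prkcz and dimmer Prkcd probe sets above the filter, the log2 difference of duplicates had an SD of 0.38 in HSL-null and 0.385 in Wildtype over 1417 probe sets. Between 50 and 100, where Prkca, the brighter Prkcd and the dimmer Prkcq probe set lay, the SD was 0.26 in HSL-null and 0.28 in Wildtype over 1552 probe sets. Between 100 and 500, the level of Prkcq 104431_at, it was 0.17 in HSL-null and 0.185 in Wildtype over 2440 probe sets. The differences of Prkca (-0.15) and Prkcz (0.23) were smaller than these SDs at their levels.

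The other genes of diacylglycerol signalling were described by list, with 1 probe set per gene, the brightest. Among all 4851 named genes above the filter 0.454% were called, 41.2% did not overlap, and the median log2 difference was -0.0041. Of 5 other protein kinase C, D and N genes on the array, 2 passed the filter and 0 were called. Prkd2, a protein kinase D that is activated through protein kinase C, measured 42.1 and 56.6 in HSL-null and 46.6 and 34.5 in Wildtype. Its values overlapped between the genotypes. Pkn2, the brighter of these 2 genes, measured 42.7 and 50.9 in HSL-null and 48.7 and 47.3 in Wildtype, also with overlap. Of 4 other diacylglycerol-binding genes on the array 0 passed the filter, and the brightest, Rasgrp2, an exchange factor for Rap, measured 28.4 and 17.5 in HSL-null and 33.6 and 25.2 in Wildtype. The other diacylglycerol kinases were not analysed here.

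Enzymes that make or use diacylglycerol held the single called gene, Lipe. Of 8 genes listed for making diacylglycerol, 0 were called, 2 did not overlap, and the median was -0.01. The 8 include Pld2, whose direct product is phosphatidic acid. Plpp1, a phosphatase that releases diacylglycerol from phosphatidic acid, measured 626.8 and 652.4 in HSL-null and 434.7 and 424.2 in Wildtype. Its arrays stood well apart, with a log2 difference of 0.57 ± 0.03, but the closest array pair was under 1.5-fold. Pnpla2, the triglyceride lipase whose main product is diacylglycerol, measured 1254.0 and 1177.7 in HSL-null and 1184.6 and 1250.5 in Wildtype, with overlap. Of 5 genes listed for using diacylglycerol, 1 was called lower (Lipe), 3 were higher without overlap, and the median was 0.13. Mgll, a monoacylglycerol lipase that does not itself use diacylglycerol, was 1 of these 3 and held the median value. Among these 3, Daglb, another diacylglycerol lipase and chosen after its values were seen, measured 46.4 and 53.2 in HSL-null and 38.2 and 39.1 in Wildtype, a log2 difference of 0.36 ± 0.10.

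Genes for proteins that hold, regulate or are phosphorylated by protein kinase C gave 0 calls. Of 12 anchor and regulator genes above the filter 4 did not overlap, and the median was -0.05. Sqstm1, the p62 scaffold that binds atypical isoforms, averaged 1048 ± 26.6 in HSL-null and 1111 ± 53.0 in Wildtype (SD, n = 2 arrays). Pdlim7, of the family of PDZ-LIM proteins to which protein kinase C anchors belong, averaged 627.9 ± 43.6 in HSL-null and 596.3 ± 8.06 in Wildtype. Of 7 substrate genes above the filter 4 did not overlap, and the median was 0.06. Gsk3a, a kinase of glycogen synthase, averaged 1285 ± 49.9 in HSL-null and 1316 ± 23.3 in Wildtype. Pebp1, the Raf kinase inhibitor protein, averaged 270.4 ± 2.05 in HSL-null and 260.0 ± 12.9 in Wildtype. Sqstm1 was lower on both HSL-null arrays by a small margin, and the other 3 overlapped.

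**Figure D4:**
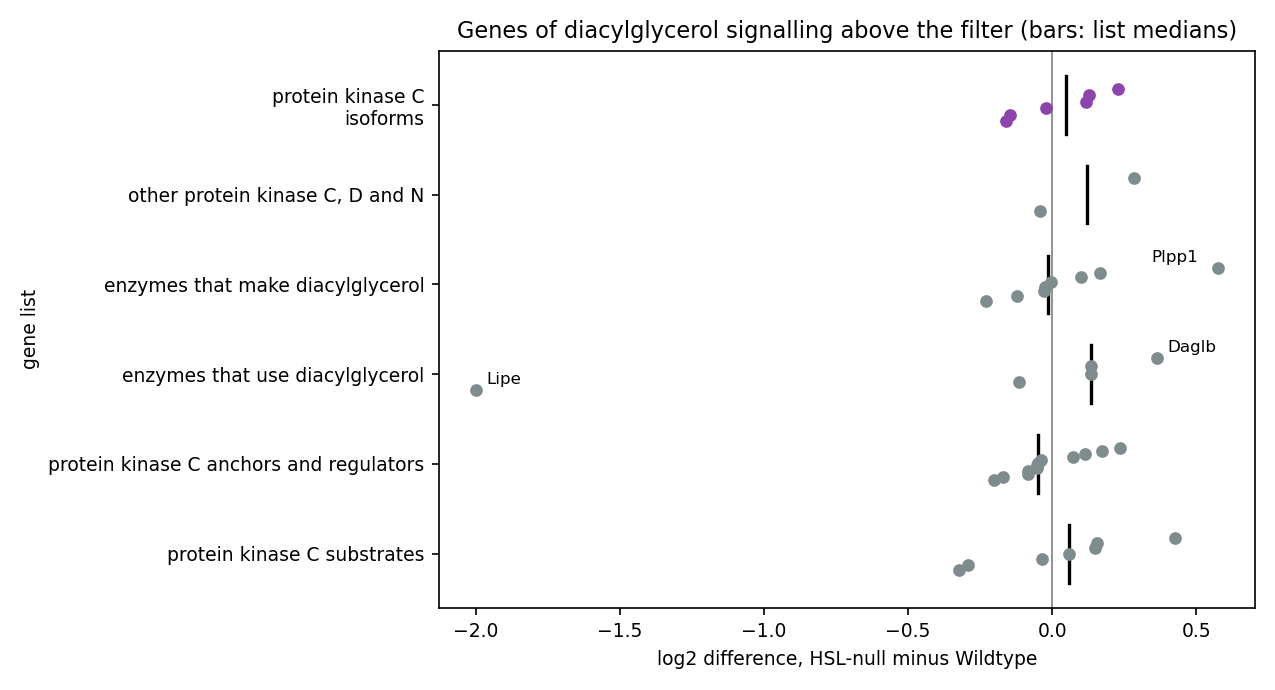
Log2 difference of HSL-null minus Wildtype for the genes above the filter in 6 lists of diacylglycerol signalling (1 point per gene, its brightest probe set, with bars at list medians). Lipe stands far to the left, 3.99-fold lower, Plpp1 at 0.57 and Daglb at 0.36, and the 6 protein kinase C isoforms lie between -0.16 and 0.23.

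Markers of other cells and fibres that express these kinases were set beside them. Of the 9 endothelial genes above the filter 0 were called and 8 lay below 0, with a median of -0.12 and a summed intensity over 14 probe sets of 1327 and 1312 in HSL-null and 1347 and 1396 in Wildtype. Among them Eng averaged 274.2 ± 0.85 in HSL-null and 283.8 ± 22.6 in Wildtype, and Cdh5 238.9 ± 6.43 in HSL-null and 240.1 ± 12.2 in Wildtype. Of 7 macrophage genes 0 were called, with a median of -0.07 and sums over 16 probe sets of 812.7 and 821.5 in HSL-null and 794.3 and 823.4 in Wildtype. The macrophage gene C1qc averaged 147.8 ± 5.09 in HSL-null and 145.6 ± 28.9 in Wildtype, and Lyz2 99.2 ± 3.11 in HSL-null and 104.5 ± 5.09 in Wildtype. Of 4 Schwann cell genes 0 were called, with a median of 0.13 and sums over 12 probe sets of 373.1 and 413.9 in HSL-null and 381.3 and 357.0 in Wildtype. Pmp22, a myelin gene, averaged 173.2 ± 14.2 in HSL-null and 177.3 ± 17.5 in Wildtype, and Mbp, another, 47.5 ± 2.48 in HSL-null and 41.9 ± 9.47 in Wildtype. The other Mbp probe set, 96310_at, also above the filter, was lower in HSL-null without overlap, with a log2 difference of -0.32 ± 0.12. With the probe sets of a gene averaged, the Schwann cell median was 0.013 in place of 0.13.

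Among adipocyte and fast-fibre genes a few were called. Of 3 white adipocyte genes above the filter 1 was called, Adipoq (adiponectin), at 73.5 and 74.1 in HSL-null and 150.2 and 157.2 in Wildtype. The adipocyte median was -0.18, and the sums over 7 probe sets were 287.6 and 275.8 in HSL-null and 401.2 and 375.1 in Wildtype. Of 11 fast-fibre genes 3 were called, all higher in HSL-null: Myh4 by 2.72 ± 0.05, Actn3 by 1.61 ± 0.10 and Pvalb by 0.76 ± 0.04 on the log2 scale. The other Myh4 probe set, 161545_r_at, also above the filter but dim, overlapped, with a log2 difference of 0.15 ± 0.15. The other Actn3 and Pvalb probe sets were called higher too. The fast-fibre median was 0.08, with sums over 17 probe sets of 33632 and 32673 in HSL-null and 29561 and 27372 in Wildtype, against 36278 and 34916 in HSL-null and 35826 and 33651 in Wildtype over 10 probe sets of slow-fibre genes, whose median was 0.03 with 0 of 8 called. The part of these shifts in the values of the protein kinase C isoforms was not tested.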

How the data were processed

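The deposited table holds 1 linear intensity per probe set and array, already scaled by the authors, since the means of the 4 arrays, after 2% of values were trimmed at each end, all came to 100.08. The software and the background correction are not given in the sources used, and no detection calls were used. Of 12488 probe sets, 10855 had 1 symbol in the platform annotation, 396 had several and 1237 had none; 10839 symbols were matched by gene ID to RefSeq (GRCm38.p6), used for names alone. No genome build is named, so no coordinates are given.

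Values under the 25th percentile of the table (5.70) were raised to it and log2 was taken. The 66 control probe sets were left out, and the filter left 6208 probe sets and 4851 named genes. Differences are HSL-null minus Wildtype means of log2 values, with standard errors from duplicates. The number of arrays limits the precision. Every member probe set was reported. In lists, called genes or otherwise the 1 or 2 brightest were named. Also named were Cd3e as a defining marker, Atp2a1 as the brightest fast-fibre gene, and Daglb, Zap70 and Cd79a, chosen after their values were seen. Calls were tested on simulated data. Alternatives covered scaling (limma 3.58.1, R 4.3.3), floor, filter, threshold, leaving out single arrays, a replicate block, and averaging the probe sets of a gene. Python 3.11.15, numpy 2.4.6 and pandas 2.3.3 were used. The members and lists were chosen with earlier results of these data known.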

Additional observations from a re-analysis of the deposited data

How the results depend on the processing

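The count of member probe sets called at 1.5-fold was 0 under each of the 14 alternatives tried for it, among them thresholds of 1.3-fold (1.53% of all probe sets called) and 2-fold (0.226%). The 2-fold threshold, the filter at the 75th percentile and both other floors could give only 0 once the main count was 0. The count without overlap was 2 of 8, beside 40.6% of all. It was also 2 with quantile normalization (40.8% of all), loess (40.9%) and both other floors, which leave these 8 as they are. Median centring gave 1 (40.3%), and no filter gave 3 of 14 (29.8%). The filter at the 75th percentile, which leaves Prkcq alone, gave 0 of 1 (43.9%). The count was 4 to 6 with 1 array left out, beside 69.0% to 71.2% of all. Leaving out an array drops array pairs, so the count cannot fall below 2 there. With the replicate block, where the array number pairs the arrays and 2 differences are used in place of 4, it was 4, beside 52.4% of all. The labels do not say that a number marks a shared batch, and the duplicate differences of the genotypes correlated at -0.086 over probe sets, so the block is given as a value. The median of the isoforms by gene was 0.05, -0.021 with the filter at the 75th percentile, and -0.023 to 0.11 with 1 array left out, so it has no settled sign. No scaling moved the median of all probe sets by more than 0.02 or changed the sign of a member above the filter, but leaving out an array changed it for 1 to 3 of the 8. By construction the filters and the block leave each difference as it is. Under the scalings, floors and left-out arrays, the differences that moved by more than the spread of duplicates were those of Prkcz 96571_at (-0.95 with either lower floor, 0 without Wildtype array 1) and Prkce 94161_at (0.60 without Wildtype array 1). Where a setting left fewer arrays or probe sets the count changed with them. With median centring Prkca dropped out of the count. Its closest array pair had differed by -0.0076, and its log2 difference moved from -0.1461 to -0.1307. Dim signal limits Prkch, Dgka and the dimmer Prkcb, Prkce and Prkcz probe sets, whose values lay below the filter and were not called.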

Other observations

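Prkci, which encodes the atypical isoform iota, is no member, and it was picked out once its values had been seen. Its probe set 101148_at measured 10.3 and 11.8 in HSL-null and 4.1 and 3.2 in Wildtype, where both arrays were under the floor of 5.70. It lay below the filter, where calls were not used. Without the filter it would be 1 of 175 probe sets called among 12422, 1.41%.

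The named genes whose profile over the 4 arrays lay closest to that of Prkcq 104431_at, by Euclidean distance between log2 values centred on their mean, were G3bp1 (0.010), Nucks1 (0.012) and Mfsd14a (0.012). Of 4850 genes compared, 710 lay within a distance of 0.1, so that closeness over 4 arrays marks genes with near-equal values on all arrays and singles out few.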
